A study of Mus musculus with 2 samples.

Results

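The Hox genes of the 4 mouse Hox clusters were examined in liver DNA, as a set of 38 genes chosen by name, with no threshold on their methylation. They comprise 10 genes of the Hoxa cluster on chromosome 6, 10 of the Hoxb cluster on chromosome 11, 9 of the Hoxc cluster on chromosome 15 and 9 of the Hoxd cluster on chromosome 2. All 38 could be tested, among 20583 genes tested in all, and their intervals held 3783 of the 2654195 CpG cytosines measured with at least 5 reads in both libraries (shared CpGs). Methylation was measured by reduced representation bisulfite sequencing (RRBS), in which MspI cuts at CCGG sites and cytosines that bisulfite leaves unconverted are read as methylated. The KI library is liver DNA of mice homozygous for the Uhrf1 YP187/188AA knock-in, which replaces a tyrosine and a proline in the tandem Tudor domain of UHRF1 by alanines and impairs its binding of H3K9me2/3. The allele was made in embryonic stem cells and passed through chimeric mice, and it is present in all cells of the animal. The WT library is liver DNA of wild-type mice. Both are from males of the strain labelled C57BL/6 at 3 months of age, with the DNA of 3 mice pooled in each library.

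Hox genes encode homeodomain transcription factors that give cells their position along the body axis. In each cluster all genes are transcribed in the same direction, and the order on the chromosome, from paralog group 1 to group 13, follows the order of their expression from anterior to posterior. Their CpG-rich promoters are classical targets of Polycomb repression and are mostly free of DNA methylation in normal tissue, where methylation is found mainly in gene bodies and between genes.

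Since each genotype was 1 library, the spread between animals is unknown, and every test on reads compared the 2 libraries, not the genotypes. Intervals and errors cover counting error only, at 95% for intervals. They treat each read at each CpG as independent, although reads can be PCR copies of 1 molecule (no identifiers were used) and several CpGs lie in 1 read, so that errors and p-values are too small. Coverage summed over CpGs was 173109895 in KI and 192144002 in WT, and the shared CpGs had a median of 37 reads in each library. The Hox CpGs had a median of 25 reads in KI and 24 in WT. Of the liver markers checked, promoters of 6 of 12 hepatocyte genes were measured, at 0 to 45.2% in KI and 2.78 to 56.7% in WT. For 3 of 7 blood and Kupffer cell genes the promoters were at 48.5 to 72.2% in KI and 65.3 to 74.8% in WT, for 2 of 4 endothelial genes at 63.6 to 83.3% in KI and 66.0 to 76.7% in WT, and for 4 of 5 stellate cell genes at 1.30 to 36.3% in KI and 0.552 to 34.8% in WT. Promoters of 2 of 4 cholangiocyte genes were under 1% in both libraries. RNA was not measured in these libraries, and the part of cell composition in the results below was not tested. In pooled tissue, a lower level in every cell and a smaller share of cells with methylated DNA cannot be told apart.

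Stretches of the clusters with large measured differences or high levels are shown in mm9 letters, in the direction of Hox transcription and with each measured CpG in capitals. The first lies in the last coding exon of Hoxa5 (chr6:52152586-52152800, minus strand), the exon that holds the homeobox. It is shown because it lies in the 1 kb window with the largest gain of the clusters, while the last coding exon of its paralog Hoxb5 moved in the opposite direction.
Hoxa5 last coding exon: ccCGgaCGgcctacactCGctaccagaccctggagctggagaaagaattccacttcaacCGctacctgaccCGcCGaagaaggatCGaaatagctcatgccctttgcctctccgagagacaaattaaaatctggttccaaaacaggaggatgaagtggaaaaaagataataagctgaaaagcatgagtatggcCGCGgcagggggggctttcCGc

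Within Hoxb3, a stretch of the first coding exon (chr11:96205581-96205847, plus strand) was lower in KI and a stretch of an intron (chr11:96194034-96194162, plus strand) was higher. They are shown as the 2 places of this gene with windows past the test in opposite directions.
Hoxb3 first coding exon: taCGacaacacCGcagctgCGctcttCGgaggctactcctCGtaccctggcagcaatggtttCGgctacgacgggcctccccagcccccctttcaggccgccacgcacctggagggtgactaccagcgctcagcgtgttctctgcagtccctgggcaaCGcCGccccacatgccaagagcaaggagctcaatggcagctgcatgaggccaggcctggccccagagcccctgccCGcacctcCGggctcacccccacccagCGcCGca
Hoxb3 intron: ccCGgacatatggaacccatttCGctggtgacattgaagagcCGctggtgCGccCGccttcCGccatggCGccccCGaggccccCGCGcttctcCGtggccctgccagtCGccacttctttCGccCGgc
The last stretch lies outside the coding sequence of Hox genes, in the gap between Hoxb13 and Hoxb9 (chr11:96109917-96110189, plus strand). It overlaps the annotated pseudogene Gm11539 and had the highest WT level.
between Hoxb13 and Hoxb9: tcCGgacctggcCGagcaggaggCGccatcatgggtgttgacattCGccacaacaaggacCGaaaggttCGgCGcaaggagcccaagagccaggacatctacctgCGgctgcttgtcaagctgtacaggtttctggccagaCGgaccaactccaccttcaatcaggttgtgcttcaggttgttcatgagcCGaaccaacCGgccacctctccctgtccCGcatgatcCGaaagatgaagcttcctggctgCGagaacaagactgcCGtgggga

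The Hox genes carried little methylation in either library. Over the 3783 CpGs, each with the same weight, the level was 6.51% in KI and 7.44% in WT, a change of -0.927 percentage points (interval -1.17 to -0.684). The medians were 0.641% in KI and 1.14% in WT, and 75.8% of the Hox CpGs were under 10% in WT. A lower value in KI was found at 1355 CpGs (35.8%), a higher value at 1091 (28.8%) and the same value at 1337. Over all shared CpGs 45.9% were lower and 24.6% higher. Over all shared CpGs the levels were 42.6% in KI and 45.6% in WT, a change of -2.99 points. Relative to WT, the mean fell by 12.5% in the Hox genes and by 6.55% over all shared CpGs, a difference that was not tested. The Hox mean depended on how CpGs were weighted and on their depth. It was -0.152 points when CpGs were weighted by their reads, -0.403 points with at least 20 reads in both libraries, and -0.662 points without the CpGs of Hoxb5.

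Among the clusters, Hoxb had the highest level in both libraries and, with each CpG weighted alike, the largest mean loss. Weighted by reads it changed by -0.138 points and Hoxd by -0.872 points, and at 20 or more reads Hoxb changed by -0.648 points and Hoxd by -1.22 points, so that the order turned. Its 848 CpGs were at 9.56% in KI and 11.6% in WT, a change of -2.02 points (interval -2.57 to -1.47). Without Hoxb3 and Hoxb5 the Hoxb genes were at 4.22% in KI and 4.51% in WT, so that these 2 genes carried most of the difference. The Hoxa genes, with 1048 CpGs, were at 8.16% in KI and 8.98% in WT (-0.814 points, interval -1.33 to -0.300). This direction turned to 0.0606 points when CpGs were weighted by reads and to 0.123 points at 20 or more reads. The 1145 CpGs of the Hoxd genes stood at 3.69% in KI and 4.62% in WT (-0.936 points, interval -1.32 to -0.555). In the Hoxc genes the KI mean was the higher one, at 5.06% in KI and 4.88% in WT over 742 CpGs, but its interval of -0.336 to 0.697 points includes 0. It turned to -0.0984 points with genes taken from 5 kb before the 5' end and to -0.0193 points from the 5' end itself. Whether clusters differ in their change was not tested beyond these intervals.

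Reads were tested gene by gene, from 1 kb before the 5' end to the end of each gene, with the Cochran-Mantel-Haenszel (CMH) test, in which each CpG is a stratum, and with Fisher's exact test on the gene's summed reads. Both tests were two-sided, their p-values were adjusted over 20583 genes by Benjamini-Hochberg, and a gene was called only where both adjusted p-values were under 0.05 and all estimates pointed the same way. By this rule 8 of 38 Hox genes (21.1%) were lower in KI, against 30.2% of all genes, and 2 of 38 (5.26%) were higher, against 1.26% of all genes. Among the 28 Hox genes under 10% in WT, 7 (25%) were lower, against 6.5% of all such genes, and 1 (3.57%) was higher, against 2.36%. This split by WT level was chosen after the data were seen. The median change over the 38 genes was -0.267 points, and over all genes tested -0.901 points. When reads were averaged over the CpGs of a gene so that a gene counts as 1 CpG, no Hox gene was called, and only 2 of all genes were.

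**Figure D1:**
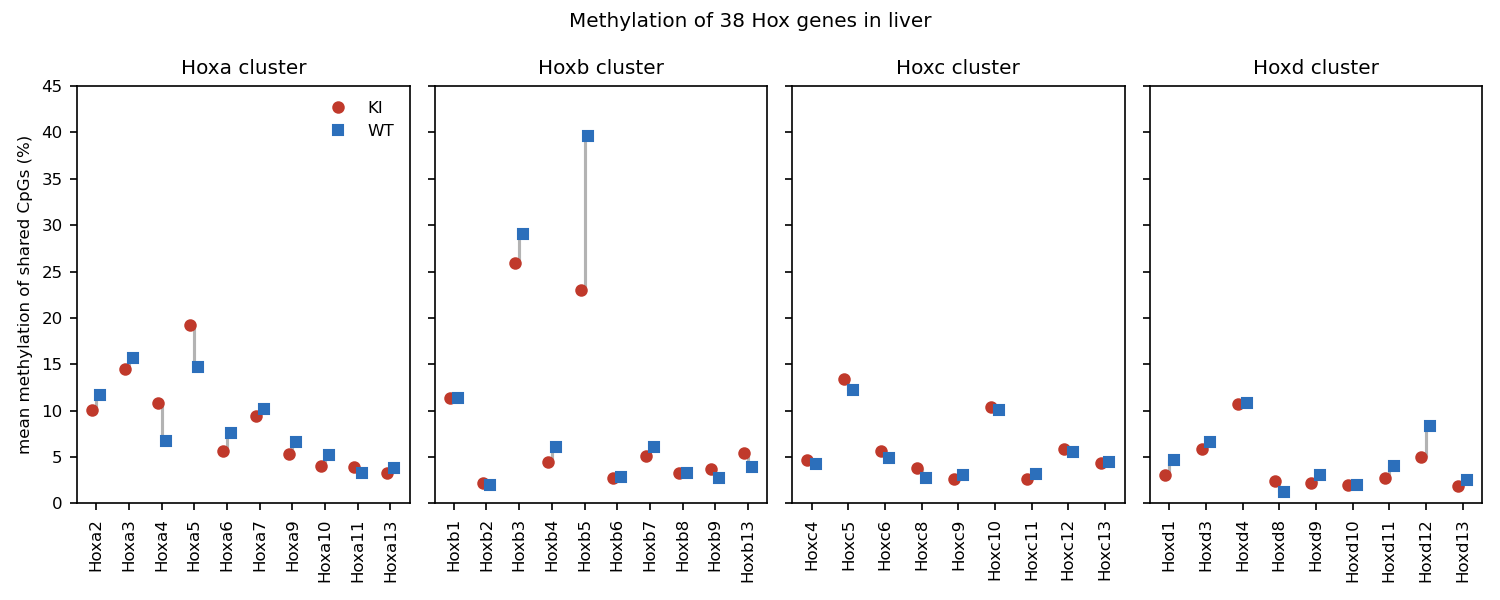
Mean methylation of the shared CpGs of each of the 38 Hox genes (percent), with KI as red circles and WT as blue squares, 1 panel per cluster and genes ordered by paralog number. Hoxb5 stands apart at 23.0% in KI and 39.6% in WT, Hoxb3 is next in WT at 29.1%, and Hoxa4 and Hoxa5 are higher in KI.

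The anterior genes, paralog groups 1 to 3, had the highest levels of the 3 parts of the clusters, at 11.0% in KI and 12.2% in WT over 1055 CpGs. This part overlaps the central one, since all CpGs of Hoxa4, Hoxa5 and Hoxa6 lie in annotated Hoxa3 and those of Hoxd4 in Hoxd3. Such CpGs count in both parts. Hoxa3 and Hoxb3, which act in the pharyngeal arches and hindbrain, held 40 and 41 of the 147 Hox CpGs at 40% or more in WT. The Hoxa3 count includes the 4 such CpGs of Hoxa6 and the 2 of Hoxa5. Hoxb3 was at 25.9% in KI and 29.1% in WT (-3.18 ± 1.07 points, counting error), with 83 of its 154 CpGs lower and 59 higher. It did not pass the test (adjusted p = 0.207 by Fisher's exact test and 0.491 by the CMH test). The Hoxa3 gene, whose annotated transcripts also run across Hoxa4, Hoxa5 and Hoxa6, was at 14.5% in KI and 15.6% in WT over 322 CpGs and was not called. In the Hoxd cluster, Hoxd3 was called lower, at 5.89% in KI and 6.67% in WT, and shared 69 of its 352 CpGs with Hoxd4. Hoxd1, which is known in the mouse for its role in sensory neurons, was at 3.10% in KI and 4.69% in WT (-1.58 ± 0.939 points) and was not called.

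The central genes, groups 4 to 8, held both the largest loss and the largest gains. Hoxb5 (chr11:96163909-96167434), which acts in the hindbrain and the shoulder region, was at 23.0% in KI and 39.6% in WT, a change of -16.6 ± 1.68 points over 63 CpGs (adjusted p = 1.34e-14 by Fisher's exact test and 2.67e-16 by the CMH test). Of its CpGs 48 were lower in KI and 8 were higher. Its paralog Hoxa5, which patterns the lung and the cervical and thoracic skeleton (chr6:52151753-52154586), was at 19.2% in KI and 14.7% in WT, a change of 4.47 ± 1.36 points over 45 CpGs (adjusted p = 0.000756 by Fisher's exact test and 6.76e-05 by the CMH test). Of the Hoxa5 CpGs 25 were higher in KI and 17 were lower. The Hoxa5 change was 13.3 points when the gene was taken from its 5' end and 1.84 points from 5 kb before it, and that of Hoxb5 was -10.5 points from 5 kb before it, all still called. The third member, Hoxc5, had 14 CpGs at 13.4% in KI and 12.3% in WT, within counting error (1.12 ± 2.39 points). Group 5 as a whole was therefore the most methylated group, at 20.5% in KI and 27.3% in WT, and without Hoxb5 it was at 17.8% in KI and 14.1% in WT.

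Of the other central genes, Hoxa4, which acts in the cervical and upper thoracic skeleton (chr6:52139670-52141752), was called higher at 10.8% in KI and 6.78% in WT (4.05 ± 1.65 points), with 23 of its 40 CpGs higher and 7 lower, and changed by 2.39 points at 10 or more reads. Hoxa6 was called lower, at 5.71% in KI and 7.57% in WT, Hoxb4, known for its effect on blood stem cells, at 4.42% in KI and 6.06% in WT, and Hoxb7 at 5.06% in KI and 6.12% in WT. The losses of these 3 genes were between 1 and 2 points. Hoxb7 shared 56 of its 137 CpGs with Hoxb8, which did not pass the test at 3.31% in KI and 3.33% in WT. All CpGs of Hoxa4, Hoxa5 and Hoxa6 also lie in the annotated Hoxa3 gene, so that these results and that of Hoxa3 are not separate. Hoxb4 was not called at 10 or more reads (-1.78 points), at 20 or more reads (-1.15 points) or from 5 kb before the 5' end (-0.343 points), nor was Hoxa6 from the 5' end itself (-2.72 points). Hoxc6 was at 5.67% in KI and 4.87% in WT, and Hoxc8, which patterns thoracic vertebrae, at 3.85% in KI and 2.79% in WT. Neither was called. Hoxd4 was at 10.7% in KI and 10.8% in WT.

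The posterior genes, groups 9 to 13, had the lowest levels of the 3 parts, at 3.99% in KI and 4.56% in WT over 1854 CpGs. The called genes of this part were all in the Hoxd cluster, whose posterior members pattern the limbs and the urogenital tract. Hoxd12 (chr2:74512986-74515763) was at 5.0% in KI and 8.36% in WT (-3.36 ± 0.925 points), with 52 of its 88 CpGs lower and 19 higher. Hoxd11 was at 2.70% in KI and 4.02% in WT, and Hoxd9 at 2.21% in KI and 3.09% in WT. With at least 20 reads in both libraries Hoxd12 changed by -1.63 points and was not called. Hoxc10, known from lumbar motor neurons and the hindlimb level, was at 10.4% in KI and 10.1% in WT and was not called. None of the 9 Hoxc genes was called, and 3 of them had a lower mean in KI, against 7 of 10 Hoxa, 7 of 10 Hoxb and 7 of 9 Hoxd genes. Of the Hoxc genes, Hoxc5 passed Fisher's exact test (adjusted p = 0.0402) and did not pass the CMH test (adjusted p = 0.0626).

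**Figure D2:**
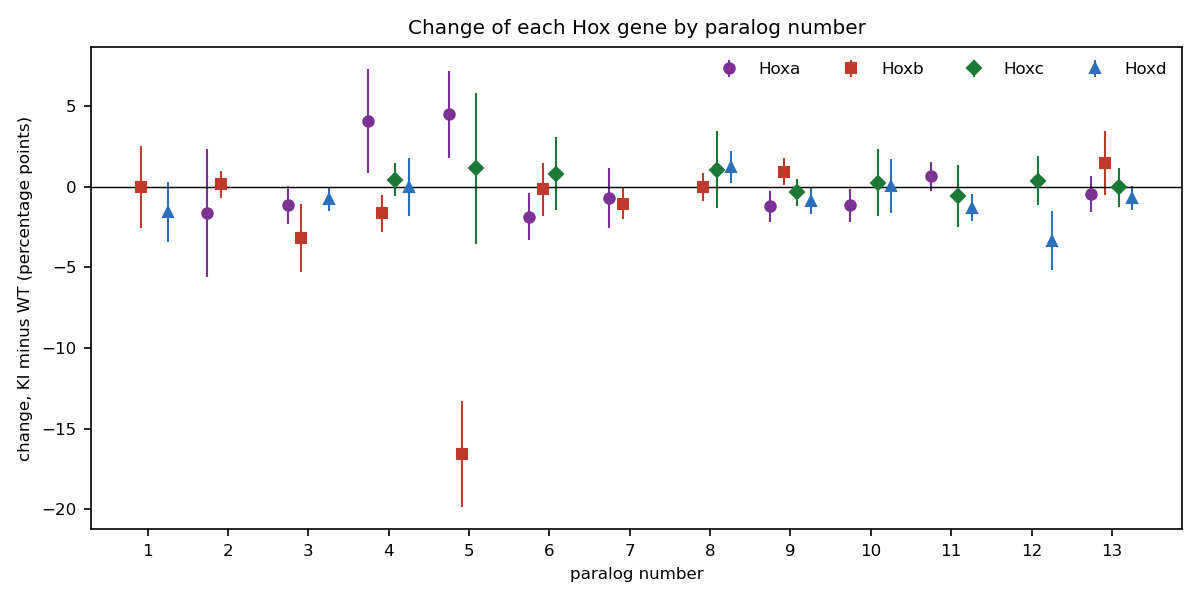
Change of each Hox gene (KI minus WT, percentage points) against its paralog number, with a symbol and colour per cluster and bars for the 95% interval of counting error. Hoxb5 at -16.6 points lies below all other genes, and Hoxa4 at 4.05 and Hoxa5 at 4.47 points lie above them.

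Most Hox promoters did not pass the test. Of 30 Hox promoters (1 kb on each side of the 5' end) with at least 5 shared CpGs, 4 (13.3%) were called lower in KI, against 7.47% of all promoters, and 1 (3.33%) was called higher, against 1.32%. The lower ones were Hoxa5 with 6.5% in KI and 10.2% in WT, Hoxa6 with 2.44% in KI and 3.83% in WT, Hoxd4 with 13.7% in KI and 16.7% in WT, and Hoxd9 with 2.23% in KI and 3.12% in WT. The higher one was Hoxa4, at 9.08% in KI and 5.86% in WT. All 8 Hoxd promoters had a lower mean in KI, against 4 of 8 Hoxa, 2 of 7 Hoxb and 2 of 7 Hoxc promoters. Over all promoters tested 55.9% had a lower mean in KI. The Hoxb5 promoter had the highest level of the 30, at 37.0% in KI and 47.9% in WT, and was not called (adjusted p = 0.0992 by Fisher's exact test and 0.111 by the CMH test). These promoter calls were fragile. Within 500 bases on each side 1 of 29 promoters was called lower and 0 were called higher, against 4.73% and 1.05% of all promoters. The Hoxa6 change turned to 0.369 points there. With averaged reads no promoter was called.

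Windows of 1 kb placed the differences within the clusters. Of 182 windows from the first to the last listed gene of each cluster, 8 (4.40%) passed both tests with a loss above 10 points in KI, against 8.87% of all windows, and 2 (1.10%) were higher, against 0.209%. With averaged reads no window was called. The median change of the Hox windows was -0.290 points and that of all windows -2.78 points, and 69.2% of the Hox windows were under 10% in WT. The largest loss lay between Hoxa4 and Hoxa5, inside an intron of the long annotated Hoxa3 gene, at 3.87% in KI and 35.3% in WT over 16 cytosines (-31.5 ± 4.36 points), and this was shallow, with 6 to 9 reads per cytosine in KI and 7 to 12 in WT, so that it drops out at 10 or more reads. The next was in Hoxb5, at 20.02% in KI and 42.1% in WT over 38 cytosines, with 33 lower and 3 higher. The window over the first coding exon of Hoxb3 (chr11:96205001-96206000) was at 31.9% in KI and 48.8% in WT over 37 cytosines. In Hoxc13, a gene of hair and nail formation, a window in the intron (chr15:102753001-102754000) was lower, at 9.30% in KI and 22.2% in WT over 7 cytosines. It was not called with reads thinned to equal numbers (-13.8 points). Its cytosines had 5 to 41 reads in KI and 6 to 37 in WT. At 10 or more reads, or without CCGG sites, it had too few cytosines to be tested.

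Upstream of Hoxa5, 16 cytosines between 128 and 236 bases before the annotated 5' end were at 5.25% in KI and 16.7% in WT, and 15 of them were lower in KI. In Hoxa9, a posterior gene known for its role in blood progenitors, 6 cytosines were at 6.24% in KI and 16.6% in WT. Without CCGG sites, or with strands summed, this window had too few CpGs to be tested. The largest gain was in the window over the last coding exon of Hoxa5 (chr6:52152001-52153000), at 42.2% in KI and 22.9% in WT over 16 cytosines (19.3 ± 2.40 points), with 14 higher and 1 lower. The first coding exon of Hoxa5 was at 8.04% in KI and 2.24% in WT, with 11 of 13 cytosines higher. The window with these 13 cytosines did not pass the test (adjusted p = 0.259 by Fisher's exact test and 0.100 by the CMH test). It was shallow, with 8 to 18 reads per cytosine in KI and 6 to 9 in WT. The other called gain was in the Hoxb3 intron shown above, at 32.9% in KI and 22.3% in WT, with 24 of 28 cytosines higher, and it was not called with strands summed (9.67 points) or with thinned reads (9.75 points). Gains that did not pass the rule were 13.8 points in a further Hoxb3 window of 7 cytosines, 10.9 points in a Hoxa3 window of 5 cytosines, and 7.52 points in a window of 14 cytosines before Hoxb4.

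The highest levels of the clusters lay in the long gap between Hoxb13 and Hoxb9, which held all 3 windows over 70% in WT. The stretch at the pseudogene had 68.5% in KI and 80.7% in WT over 30 cytosines (-12.2 ± 1.19 points), with 25 lower, and both windows it spans were called, one of them not with strands summed (-9.53 points). The other 3 windows of this gap among the 5 highest were not called, at 77.8% in KI and 79.1% in WT, at 67.8% in KI and 69.0% in WT, and at 63.0% in KI and 68.5% in WT. The last of these passed both tests (adjusted p = 0.0059 by Fisher's exact test and 1.41e-05 by the CMH test). All 10 of its cytosines were lower in KI, and it missed only the limit of 10 points. Over all CpGs between the listed genes of the Hoxb cluster the level was 17.7% in KI and 19.8% in WT. The corresponding values between Hoxa genes were 3.71% in KI and 4.20% in WT, between Hoxc genes 4.66% in KI and 6.30% in WT, and between Hoxd genes 5.05% in KI and 6.08% in WT.

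**Figure D3:**
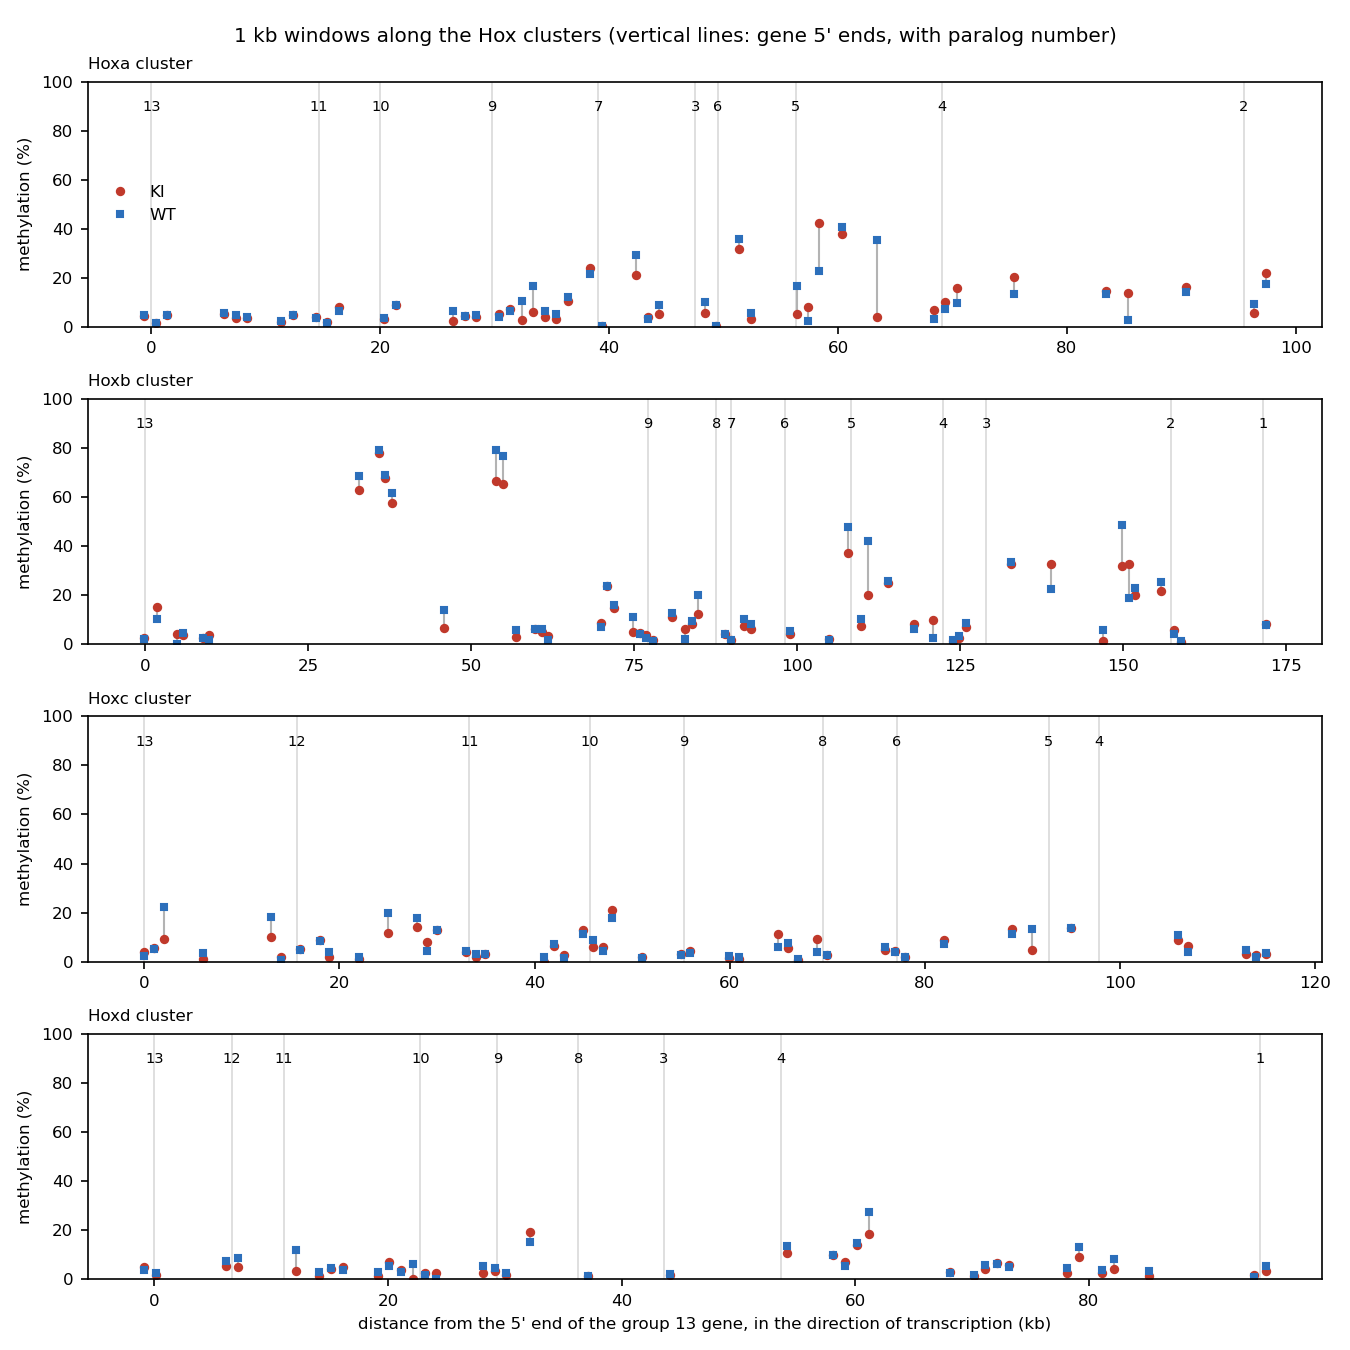
Methylation (percent) of 1 kb windows along the 4 clusters by distance (kb) from the 5' end of the group 13 gene, with KI as red circles, WT as blue squares and grey lines at gene 5' ends with their paralog numbers. Most windows (69.2%) lie under 10% in WT, and the 3 windows over 70% in WT lie in the gap between Hoxb13 and Hoxb9.

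Exons were then compared by position, a division made after the data were seen. In all 38 genes the last coding exon encodes a conserved peptide of the homeodomain. Over the Hox genes the last coding exons were at 9.84% in KI and 11.5% in WT (433 CpGs), and the other coding exons at 4.18% in KI and 5.20% in WT (1227 CpGs). Untranslated regions were at 4.53% in KI and 5.83% in WT, the first 1 kb upstream at 6.55% in KI and 7.21% in WT, and introns and the rest at 8.51% in KI and 9.02% in WT. In genes outside the Hox clusters with 2 coding exons, the last was at 45.2% in KI and 47.4% in WT and the first at 19.7% in KI and 20.6% in WT, so that a higher last exon is not particular to Hox genes. Of 15 Hox genes with at least 5 CpGs in both classes, the last exon was the higher in 9 in KI and in 10 in WT.

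The last coding exons of the Hoxa and Hoxb genes had opposite mean changes. Those of Hoxa were at 15.5% in KI and 11.8% in WT (3.63 points, interval 1.95 to 5.32), and those of Hoxb at 10.5% in KI and 15.9% in WT (-5.41 points, interval -6.54 to -4.27). Hoxa5 and Hoxb5 held the largest of these differences, with 10 of the 105 Hoxa and 30 of the 183 Hoxb cytosines. Means without these 2 exons were not computed, so that the contrast is not shown for the other exons. In the Hoxa5 last coding exon 10 cytosines of 1 strand were at 54.4% in KI and 28.5% in WT, a change of 25.9 ± 3.46 points, and all 10 were higher in KI. Their median depth was 35 reads in KI and 31 in WT. They lie within 215 bases and can share reads, so that the 10 are not separate observations. In the last coding exon of Hoxb5 30 cytosines were at 22.9% in KI and 49.1% in WT, a change of -26.2 ± 2.43 points, with 28 lower and 1 higher. On its plus strand the Hoxb5 level was 23.5% in KI and 57.5% in WT, and on its minus strand 22.1% in KI and 38.2% in WT. Of the 17 plus-strand cytosines 4 had 5 reads in KI, all unmethylated, and 9 in WT. With at least 10 reads in both libraries, a limit added after the data were seen, the plus strand changed by -21.3 points and the exon by -18.7 points. Without CpGs inside CCGG sites the change was 27.3 points in the Hoxa5 stretch and -26.9 points in the Hoxb5 stretch. The Hoxb3 first coding exon was at 31.2% in KI and 48.5% in WT over 32 cytosines, with 26 lower and 2 higher.

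**Figure D4:**
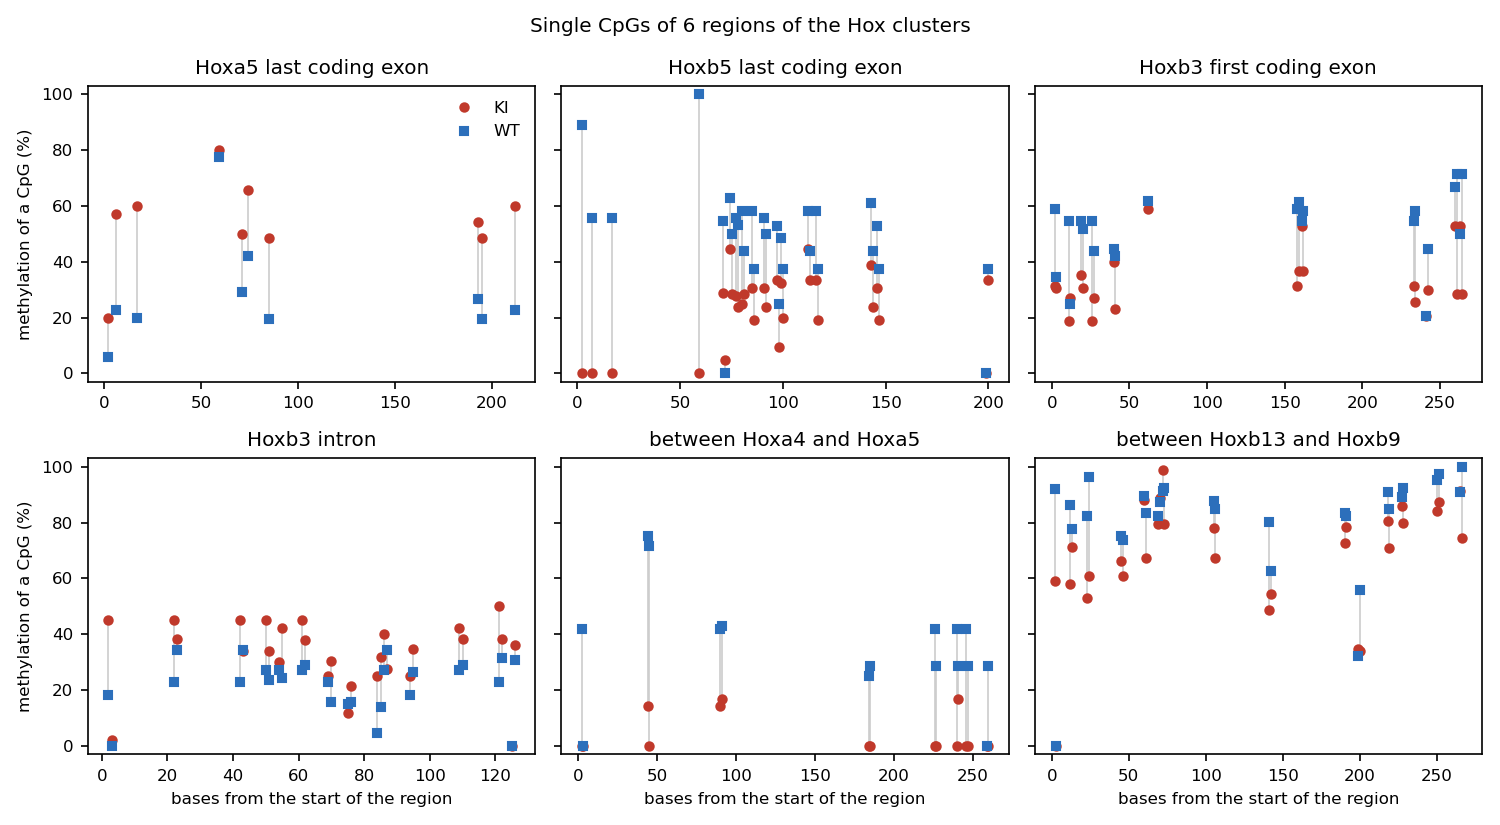
Methylation (percent) of single CpG cytosines in 6 stretches of the clusters, by distance in bases from the start of each stretch, with KI as red circles, WT as blue squares and grey lines joining the 2 values of a cytosine. All 10 cytosines of the Hoxa5 exon are higher in KI, and 28 of 30 in the Hoxb5 exon are lower.

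Single CpGs rarely passed their own test, which asked for an adjusted p under 0.05 by Fisher's exact test over all shared CpGs and a difference above 25 points. In the Hox genes 3 CpGs (0.0793%) were lower, against 1.09% of all shared CpGs, and 1 (0.0264%) was higher, against 0.0474%. The Hoxb5 last coding exon held one of the lower CpGs, with 0 of 5 reads methylated in KI and 9 of 9 in WT. A CpG in the first coding exon of Hoxa9 (position 52175593 of chromosome 6) had 0 of 15 methylated reads in KI and 8 of 13 in WT, while the opposite strand was at 0% in both libraries. In the Hoxd4 last coding exon, which also lies in an annotated Hoxd3 transcript, a CpG at position 74566429 of chromosome 2 had 2 of 42 methylated reads in KI and 13 of 37 in WT, with the opposite strand at 25% in KI and 18.2% in WT. The higher CpG, in Hoxc13 at position 102752402 of chromosome 15, had 14 of 35 methylated reads in KI and 1 of 26 in WT, with its opposite strand at 31.4% in KI and 27.7% in WT. Where the opposite strand was measured, it did not show the difference of the called strand.

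The mean loss per CpG was larger at CpGs of high WT level than at those of low WT level. Even so, 7 of the 8 Hox genes called lower had a mean under 10% in WT. To keep the same reads from setting the level and the change, WT reads were split at random, 1 part to place a CpG in a class and the other to measure the change. Hox CpGs under 10% changed by -0.0183 points (2899 CpGs), and all shared CpGs of this class by -0.0538 points. In the class of 20 to 40% the changes were -3.72 points in the Hox genes and -3.78 points over all CpGs. Hox CpGs at 60 to 80% were at 34.8% in KI and 51.6% in WT (-16.8 ± 3.19 points, 43 CpGs), and all shared CpGs of this class changed by -7.42 points. In the class of 80 to 100% the changes were -15.6 ± 5.22 points for 23 Hox CpGs and -4.84 points over all CpGs. By the measuring reads these Hox CpGs were at 38.3% in KI and 53.8% in WT. All CpGs of that class were at 85.9% in KI and 90.7% in WT, and those of 60 to 80% at 66.9% in KI and 74.3% in WT. In both classes the Hox CpGs thus had a lower measured WT level, so that these changes are not compared at like levels. Without Hoxb3 and Hoxb5 the changes of these 2 classes were -12.8 points over 17 CpGs and -13.5 points over 14. Neighbouring CpGs share reads, so that these CpGs come from fewer fragments than their number.

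**Figure D5:**
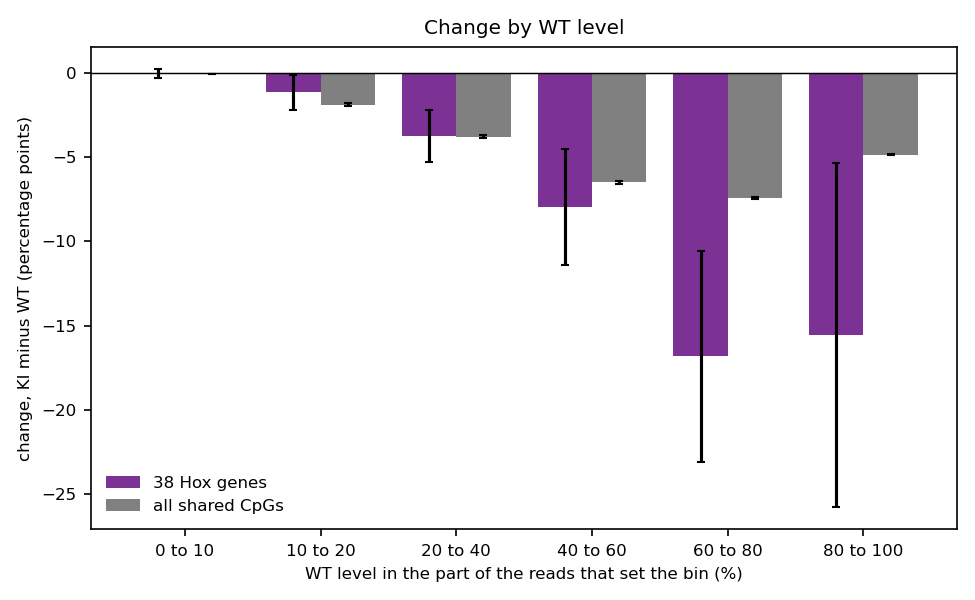
Change (KI minus WT, percentage points) by WT level class for the CpGs of the 38 Hox genes (purple) and for all shared CpGs (grey), with bars for the 95% interval of counting error. Changes are near 0 under 10%, and at 60 to 80% they are -16.8 points in the Hox genes and -7.42 points over all CpGs. The measured WT level of that class is 51.6% in the Hox genes and 74.3% over all CpGs.

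The Hox CpGs shared a dense setting, and their level was below that of all shared CpGs at every density but the highest. The median number of CpGs from 100 bases before to 100 bases after a CpG was 14 for Hox CpGs and 7 for all shared CpGs. At 5 to under 10 CpGs in this stretch, Hox CpGs were at 9.37% in KI and 9.85% in WT, and all CpGs at 57.5% in KI and 61.2% in WT. At 15 to under 20 they were at 6.23% in KI and 8.10% in WT, and all CpGs at 13.5% in KI and 14.3% in WT. From 20 upward Hox CpGs were at 3.12% in KI and 3.24% in WT, and all CpGs at 2.50% in KI and 2.67% in WT. At low density the Hox CpGs were thus far less methylated than the shared CpGs at large, in both libraries.

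The genes that act with or upstream of Hox genes were read from a list of 49, all tested by the same gene test. Of these 9 were lower in KI and 2 were higher, beside 30.2% lower and 1.26% higher over all genes. The median change was -0.779 points, beside -0.901 points over all genes. Among the 9 TALE homeodomain partners, which bind DNA together with Hox proteins, Meis3 was at 50.4% in KI and 60.4% in WT, the largest change of the list's called genes. Pknox1 was at 22.5% in KI and 23.3% in WT and Pknox2 at 35.0% in KI and 38.2% in WT, both called lower. Meis1 was called higher, at 50.7% in KI and 47.6% in WT. Of 10 retinoid receptors and enzymes, which set Hox expression domains in the embryo, 4 were lower (30.2% of all genes were). These were Cyp26a1 at 11.8% in KI and 13.03% in WT, Cyp26b1 at 12.1% in KI and 14.3% in WT, Rarg at 28.3% in KI and 31.1% in WT, and Rxrb at 8.53% in KI and 8.79% in WT. The part of the list headed Polycomb and Trithorax held 20 genes, among them Gdf11, which is in neither group. Only Kdm6b, an H3K27 demethylase, was called, lower at 53.3% in KI and 55.0% in WT (30.2% of all genes were lower). Of 10 ParaHox and flanking homeobox genes only Cdx4 was called, higher at 13.05% in KI and 10.3% in WT.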

How the data were processed

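Liver DNA of 3 KI and of 3 WT males was pooled by genotype and sequenced as 1 RRBS library each. The submitters' processing notes name Bismark (version 0.12.20) and mm9, and the authors used reads with a single place in the genome. For each CpG cytosine they deposited the coverage as a count of reads and the methylation as a percent. How reads were trimmed and whether duplicates were removed is not given in the sources used here. The KI label gives the genotype as knock out, and the title gives KI, which was used. In RRBS, cut ends are repaired with unmethylated cytosines. In CpG pairs inside CCGG sites of Hox genes the lower strand averaged 0.983% in KI and 1.11% in WT and the other 10.3% in KI and 11.4% in WT.

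Methylated reads were recovered as coverage times percent and lay within the rounding of a whole read at all CpGs. Cytosines of both strands count separately and were used with at least 5 reads in both libraries, each with the same weight. They covered 21.0% of the 18048 CpG cytosines in the Hox gene intervals. Genes, exons and 5' ends came from the GENCODE annotation of mm9, without pseudogenes. A CpG in more than 1 gene (326 in the Hox genes) was counted once within each mean over genes. It can enter the means of more than 1 gene, paralog group or part of the clusters. Features needed at least 5 shared CpGs. Tests were adjusted over all features of the genome, as given beside the results. They were also run on simulated reads drawn independently at each CpG. That simulation held no PCR copies and no reads shared between CpGs, so that it cannot show how far the p-values are too small. Full values are given for genes called by both tests and, in each cluster, for the 3 genes with the largest change and the 2 with the highest WT level. Named windows are called ones, the 5 largest losses, the 5 largest gains and the 5 highest WT levels, and named CpGs are the called ones. The members, lists and rules were chosen with earlier results of these data known. Sequences were read from mm9. Some sequences and 1 gene of the partner list are not reported here. The tools were Biopython 1.88, matplotlib 3.10.9, numba 0.67.0, numpy 2.4.6, pandas 2.3.3, scipy 1.17.1 and Python 3.11.15.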

Additional observations from a re-analysis of the deposited data

How the results depend on the processing

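No paired analysis was possible because each genotype is 1 library. With averaged reads no gene, promoter or window of the Hox clusters was called in either direction, and a loss of power is part of that test's construction, since only 2 of 20583 genes passed it. Of single Hox CpGs, 2 were higher by a chi-square test, against 0.0637% of all shared CpGs. At 20 or more reads in both libraries 1 was lower and 2 were higher, against 1.74% and 0.0699%. With strands summed 0 were higher, against 0.0634%, and with reads thinned to equal numbers 0 were lower, against 0.887%. Of 38 Hox genes 4 were higher by Fisher's exact test on summed reads alone, against 9.15% of all genes. At 20 or more reads 4 of 35 were higher, against 1.39%. Of promoters 0 were higher with strands summed, with thinned reads or within 500 bases of the 5' end (1.37%, 0.887% and 1.05% of all promoters). Within 500 bases 1 of 29 was lower, against 4.73%, and the Hoxa6 change turned to 0.369 points. A limit of 25 points left 1 window lower and 0 higher, against 0.306% and 0.0356% of all windows. Thinned reads left 1 higher, against 0.174%. Of the 49 genes of the partner list 17 were lower and 13 higher by Fisher's exact test alone, against 38.8% and 9.15% of all genes. By the CMH test alone 16 were lower, against 44.2%, and with strands summed 1 was higher, against 1.12%. The mean change over the 38 genes was -0.152 points weighted by reads, -0.403 points at 20 or more reads and -0.662 points without Hoxb5. For Hoxb it was -0.138 and -0.648 points weighted by reads and at 20 or more reads, and for Hoxa it turned to 0.0606 and 0.123 points. Where the same WT reads set the class and the change, the changes from the lowest to the highest class were 1.37, -3.66, -7.99, -17.4, -27.7 and -55.0 points, and without CCGG sites that of 10 to 20% was -2.47 points. The causes of the other moves were not tested. Of the other counts and means, 86 values stayed within 1.5 times the count or within the counting interval of the mean, which for Hoxc includes both signs. For called genes, promoters and windows 112 values kept their call, 37 lost it and 1 reversed. This tally holds averaged reads for windows alone, and a window with fewer than 5 shared CpGs in a setting gave no value. The called genes and promoters all lost their call with averaged reads, and these losses are not in the tally. The shallowest called Hox CpG had 5 reads in KI and 9 in WT.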
